A study of Schizosaccharomyces pombe with 24 samples.

Results

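The centromere chromatin genes described here are 10 of the 5195 *Schizosaccharomyces pombe* genes in the deposited tables. They were chosen by gene symbol as the centromeric histone H3 variant CENP-A, the factors that load it and a set of kinetochore proteins that sit on it: *cnp1*, *scm3*, *sim3*, *mis16*, *mis18*, *ams2*, *cnp3*, *mis6*, *sim4* and *mis12*. All 10 symbols were found. In fission yeast the central core of each centromere is wrapped in nucleosomes that carry CENP-A in place of histone H3. CENP-A is escorted by chaperones and deposited, largely in G2, at sites licensed by the Mis16-Mis18 complex, and the inner kinetochore assembles on it and links to the microtubule-binding outer kinetochore. A kinetochore that loses CENP-A missegregates chromosomes, and CENP-A in excess can enter chromosome arms.

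Poly(A)-selected RNA was sequenced from 8 genotypes with 3 libraries each. Of the 7 genotypes set against wild type (WT), 6 carry a single amino acid change in histone H2B, encoded by the single gene *htb1* and taken from mutations seen in human cancers: H2BG52D, H2BP102L, H2BE34K, H2BE75Q, H2BE112K and H2BD67N. The remaining genotype is titled Set1_del, while its genotype field reads as a knockdown of *set1*, the histone H3 lysine 4 methyltransferase. In the study's strain list all the H2B mutants and WT are haploid with *leu1-32* and *ura4-D18*. H2BG52D and H2BP102L are *h-* with an *ade6* allele left undefined, H2BE34K, H2BE75Q, H2BE112K and H2BD67N are *h+ ade6-M210* with *kanMX6* inserted at *htb1*, and WT is *h+ ade6-M216* without that marker. By this list the mutation cannot be told apart from mating type in H2BG52D and H2BP102L, or from the marker and the *ade6* allele in the other 4. For Set1_del the study names more than 1 strain, so its alleles are not given here. The study calls the 3 libraries of a genotype independent biological repeats.

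Libraries held 18935513 to 28181070 counts. In the libraries labelled Set1_del, *set1* had 336, 362 and 412 counts, against 20, 20 and 32 in WT, which goes against a deletion or a knockdown, and no direction drawn from these libraries is ascribed to loss of Set1. *ura4*, which *ura4-D18* deletes, had 1382 counts in H2BG52D replicate 1, 712 in H2BP102L replicate 1 and 865 in WT replicate 3, and at most 2 counts in every other library. The mating-type gene *mat1-Mc* of *h-* cells had 238, 129 and 0 counts in H2BG52D and 78, 150 and 0 in H2BP102L, against 0, 0 and 103 in WT, so that these 3 groups are mixed by this gene, against the strain list. Each call was also made without the 3 libraries with *ura4* reads. *htb1* RNA stood at 5142 to 9003 CPM (counts scaled to library size) in H2BE75Q, 4119 to 6349 in H2BE112K and 8142 to 12090 in H2BD67N, against 914 to 1081 CPM in WT. The scale matters here. CPM below are scaled by TMM, which sets the bulk of genes level between libraries, whereas division by total counts placed the median of all genes 0.21 to 0.77 higher on the log2 scale in the 7 genotypes than in WT. By TMM, 54.0% to 57.0% of called genes were higher than in WT in the 6 genotypes other than H2BE34K, and by total counts 84.2% to 89.6% were.

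The members are mostly rare transcripts. Levels of genes of different length can be compared in FPKM, the deposited unit that divides fragments by transcript length and by mapped reads. In WT *mis16* was the most abundant, at 11.4, 11.98 and 13.2 FPKM, and *ams2* came next at 3.21, 3.09 and 3.76. The median gene had 4.01 FPKM, so *mis16* alone of the 10 stood above it. *mis12* averaged 1.38 ± 0.338 FPKM, *cnp3* 1.12 ± 0.303 and *mis18* 0.743 ± 0.359 (SD, n = 3 each), and these neighbours overlapped in their libraries. *sim4*, *sim3* and *cnp1* followed at 0.540, 0.503 and 0.413 FPKM, also overlapping. *scm3* at 0.193 and *mis6* at 0.120 FPKM were lowest, and *mis6* rested on 1, 6 and 11 counts in WT. *cnp1* itself had 17, 22 and 17 counts, so most members carry a counting error that the fold changes below inherit.

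**Figure D1:**
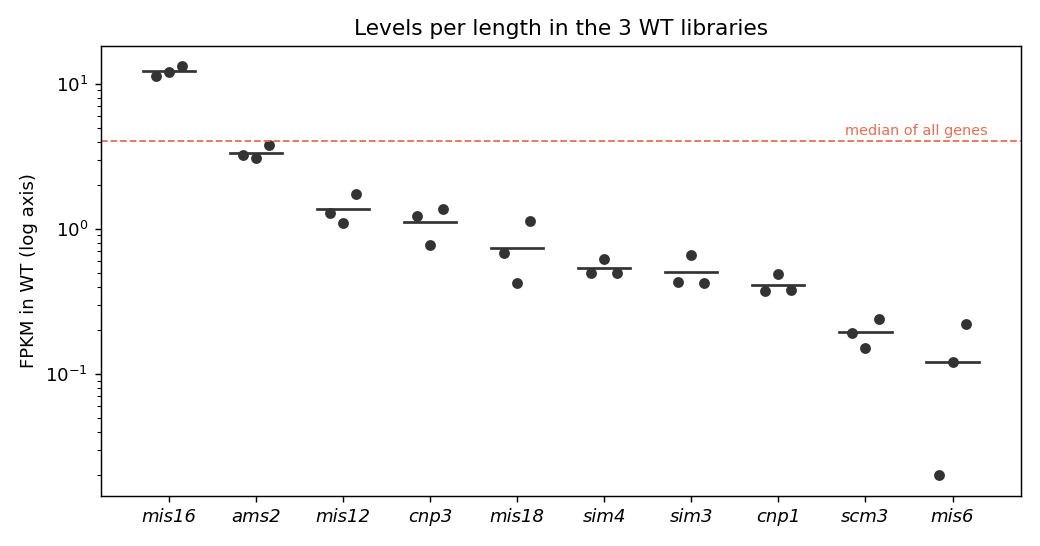
FPKM of the 10 centromere chromatin genes in the 3 WT libraries, on a log axis, with points for libraries, bars for means and a dashed line at the median of all genes. mis16 stands above that line and the other 9 genes lie below it.

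Neighbouring transcription also touches these values. In the RefSeq annotation of assembly ASM294v3, all 10 members overlap at least 1 gene on the opposite strand, and whether the authors counted by strand is not given in the sources used here. The overlap is longest for *scm3* (92.7% of the gene), *sim4* (91.3%), *ams2* (85.4%), *mis18* (79.5%) and *sim3* (75.4%), in each case with a non-coding RNA gene. A non-coding RNA gene also covers 66.7% of *mis16* on the opposite strand. Of coding genes on the opposite strand, *pth3* covers 56.1% of *cnp1* and *swi5* 60.2% of *mis12*, while those at *mis16* and *mis6* cover under 5% of either. Neither *pth3* nor *swi5* passed the test in any comparison of a genotype with WT, but some of their fold changes were large. The log2 fold change of *pth3* was 1.32 in H2BE34K, 1.11 in H2BE75Q, 0.96 in H2BG52D and 0.74 in H2BD67N. It was 0.27 in H2BE112K, 0.19 in H2BP102L and -0.24 in the libraries labelled Set1_del. That of *swi5* was 0.69 in H2BG52D, 0.49 in H2BD67N and 0.38 in H2BP102L, and -0.41 to -0.10 in the other genotypes. Their part in the counts of *cnp1* and *mis12* was not tested. Sense and antisense reads cannot be told apart in these counts.

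Genotypes were compared with edgeR's quasi-likelihood test, and every adjusted p below is Benjamini-Hochberg adjusted over all genes of that comparison. A gene is called at an adjusted p under 0.05, and every comparison with WT uses the same 3 WT libraries. Across all 24 libraries in 1 fit, 7 of the 10 members differed among the 8 genotypes, beside 68.8% of all 5030 genes tested, so the members varied about as often as genes at large. *mis16* had the smallest adjusted p of the 10 (0.000249), followed by *sim4* (0.000430), *cnp3* (0.00145), *mis12* (0.00247), *sim3* (0.00662), *mis18* (0.0114) and *ams2* (0.0126). *scm3* (adjusted p = 0.101), *cnp1* (0.144) and *mis6* (0.171) did not pass.

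**Figure D2:**
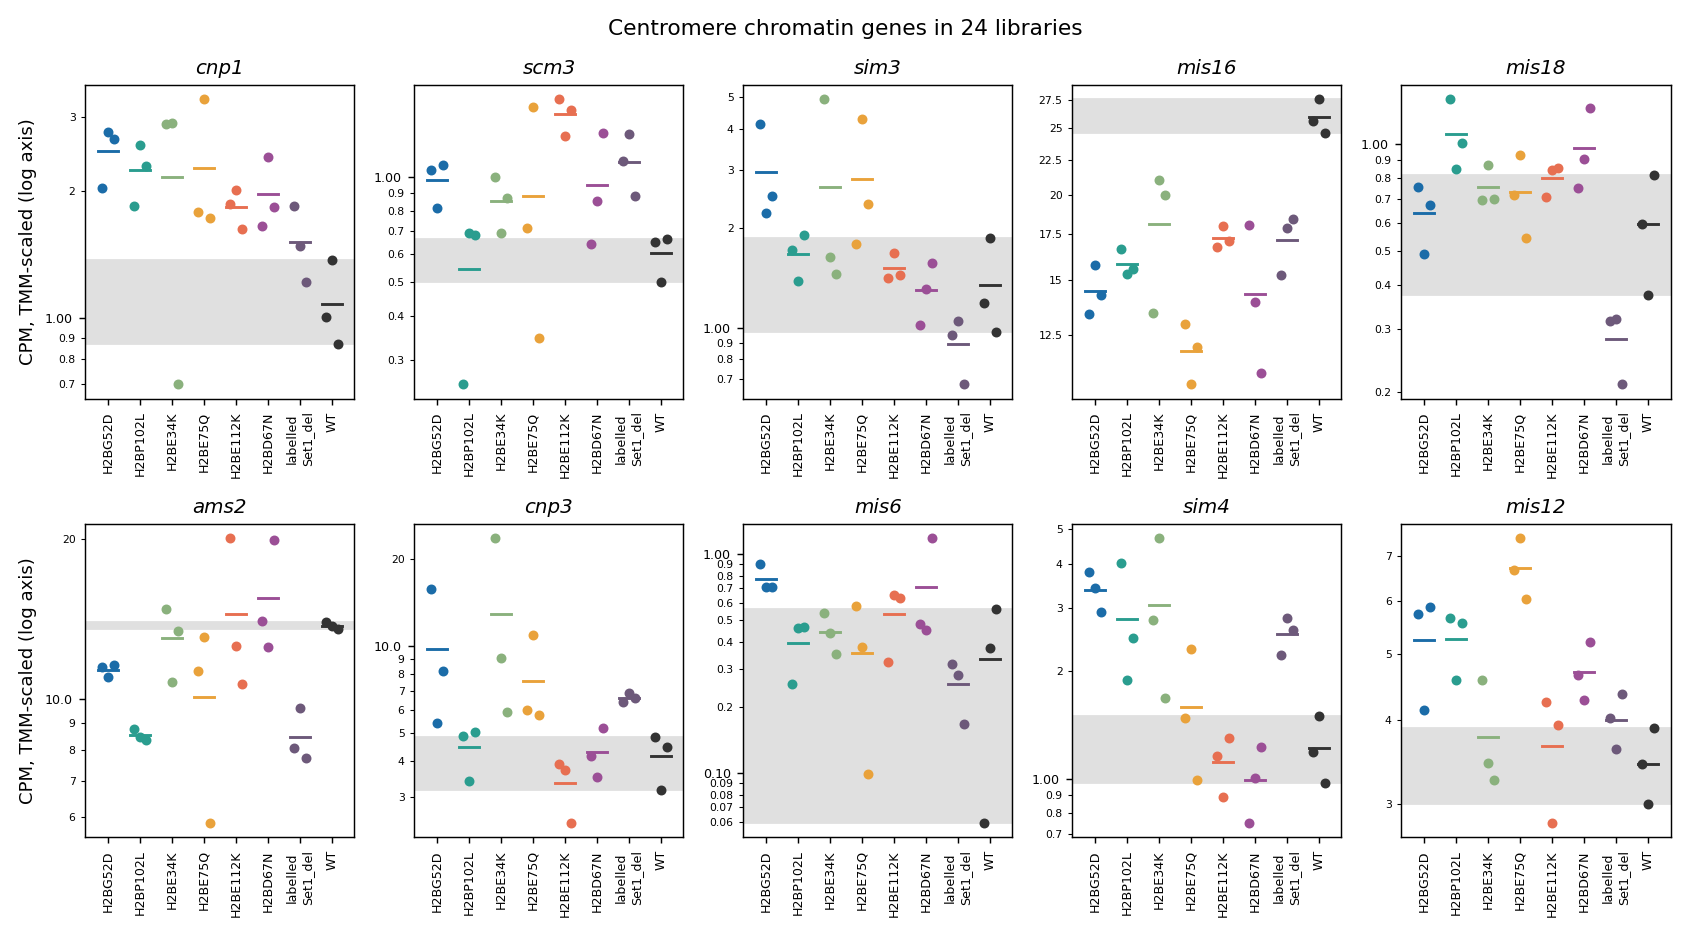
TMM-scaled CPM of each member in every library, on log axes, with the 7 other genotypes to the left of WT, bars for means and a grey band for the range of WT. Every point of mis16 outside WT lies below the band, while for cnp1 19 of 21 lie above it.

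*cnp1* encodes CENP-A. It had 2.04, 2.77 and 2.66 CPM in H2BG52D and 1.85, 2.58 and 2.30 CPM in H2BP102L, against 1.01, 1.37 and 0.869 CPM in WT. H2BD67N libraries held 1.66, 2.41 and 1.84 CPM. All 3 libraries of each of these mutants stood above all 3 of WT, as did those of H2BE75Q and H2BE112K. The gene rose 2.30-fold in H2BG52D (log2 fold change 1.20 ± 0.33, SE, adjusted p = 0.0157), 2.13-fold in H2BP102L (1.09 ± 0.30, 0.0145) and 1.91-fold in H2BD67N (0.94 ± 0.32, 0.0435). The log2 fold change was also positive in the other 4 genotypes without passing: 1.06 in H2BE75Q (adjusted p = 0.0684), 1.05 in H2BE34K (0.329), 0.80 in H2BE112K (0.0603) and 0.55 in the libraries labelled Set1_del (0.201). By total counts H2BE75Q and H2BE112K passed as well (adjusted p = 0.0342 and 0.0266). H2BE34K replicate 3, at 0.698 CPM, was the only one of the 21 libraries under the lowest of WT, beside 2.89 and 2.91 CPM in replicates 1 and 2. These calls are fragile. In H2BG52D the adjusted p was 0.0569 without WT replicate 1, 0.0590 without WT replicate 3 and 0.0674 without H2BG52D replicate 3, and in H2BP102L it was 0.0809 without H2BP102L replicate 2. In H2BD67N the call was kept in 5 of 14 alternative fits and in 1 of 6 fits that left out a library, with adjusted p of 0.135, 0.0629 and 0.134 without WT replicates 1, 2 and 3 and of 0.0656 and 0.186 without H2BD67N replicates 1 and 2.

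*scm3* encodes the CENP-A chaperone of the HJURP family, which hands CENP-A to the centromere. It had 1.67, 1.31 and 1.56 CPM in H2BE112K, against 0.652, 0.499 and 0.664 CPM in WT, with every H2BE112K library above every WT library. It rose 2.54-fold there (log2 fold change 1.34 ± 0.30, SE, adjusted p = 0.00942) and kept the call in each of the 6 fits that left out a library, with a highest adjusted p of 0.0404. No other genotype passed for *scm3*. The nearest were the libraries labelled Set1_del, at 1.11, 1.33 and 0.882 CPM (log2 fold change 0.92 ± 0.34, adjusted p = 0.0654). The gene was not uniform within genotypes: H2BE75Q replicates had 0.716, 1.59 and 0.346 CPM, and H2BP102L replicate 1 had 0.255 CPM from 4 counts.

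*sim3* encodes a NASP-like histone chaperone that binds CENP-A. It had 4.13, 2.23 and 2.51 CPM in H2BG52D, against 1.19, 1.87 and 0.971 CPM in WT, so all 3 mutant libraries stood above WT. It rose 2.23-fold (log2 fold change 1.16 ± 0.38, SE, adjusted p = 0.0316). Libraries of the same genotype differed widely elsewhere: H2BE34K had 4.93, 1.64 and 1.45 CPM and H2BE75Q 1.79, 4.31 and 2.37 CPM, both overlapping WT, and neither passed (adjusted p = 0.330 in H2BE34K and 0.0694 in H2BE75Q). In H2BE75Q it did pass by total counts (adjusted p = 0.0311), in the fit of all 24 libraries (0.0423) and without H2BE75Q replicate 1 (0.0426). The H2BG52D call rested on few libraries. Without the libraries with *ura4* reads its log2 fold change was 0.64 (adjusted p = 0.215), without H2BG52D replicate 1 it was 0.82 (0.0913), and the adjusted p was 0.0559 without H2BG52D replicate 3, 0.0991 without WT replicate 1 and 0.103 without WT replicate 3. In the libraries labelled Set1_del *sim3* had 0.951, 1.05 and 0.672 CPM, with a negative log2 fold change that did not pass (-0.51 ± 0.34, adjusted p = 0.298).

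*mis16* encodes the fission yeast counterpart of the RbAp46/48 histone-binding WD40 proteins and acts with Mis18 to license CENP-A deposition. It was the member with the steadiest pattern. All 21 libraries of the other genotypes lay between 10.6 and 20.98 CPM, against 25.6, 27.6 and 24.6 CPM in WT. Over all genes tested, 3.40% had all 21 of these libraries below all 3 of WT. H2BE75Q had the lowest level, 12.9, 10.6 and 12.01 CPM, followed by H2BD67N with 18.1, 13.97 and 10.99 CPM and H2BG52D with 13.4, 15.8 and 14.3 CPM. H2BP102L had 16.7, 15.3 and 15.6 CPM. H2BE75Q lay wholly below H2BG52D and H2BP102L, while H2BD67N overlapped all 3. The log2 fold change was -1.14 ± 0.18 in H2BE75Q (SE, adjusted p = 0.000479), -0.84 ± 0.14 in H2BG52D (0.00122), -0.79 ± 0.18 in H2BD67N (0.00649) and -0.68 ± 0.12 in H2BP102L (0.00138).

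The other 3 genotypes had smaller fold changes of *mis16*, without a test of that difference. It had 16.8, 18.02 and 17.1 CPM in H2BE112K (log2 fold change -0.55 ± 0.13, SE, adjusted p = 0.00984) and 15.3, 17.9 and 18.4 CPM in the libraries labelled Set1_del (-0.52 ± 0.12, 0.00741). In H2BE34K, with 13.4, 20.98 and 20.01 CPM, it did not pass (-0.48 ± 0.20, adjusted p = 0.250). Leaving out any single library ended none of the 6 calls. The scale did. By total counts the log2 fold change of *mis16* was still negative in all 7 genotypes, between -0.50 and -0.10, but none passed, with adjusted p from 0.145 to 0.844. Against the median of all genes, which moved up by total counts, *mis16* was low on both scales. On the deposited FPKM the groups overlapped in 3 genotypes, with 12.7 in H2BG52D replicate 1, 14.1 in H2BE34K replicate 2 and 12.5 in H2BE112K replicate 1, against 11.4 to 13.2 in WT. The calls of *mis16* thus hold relative to the bulk of genes and not relative to total counts.

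**Figure D3:**
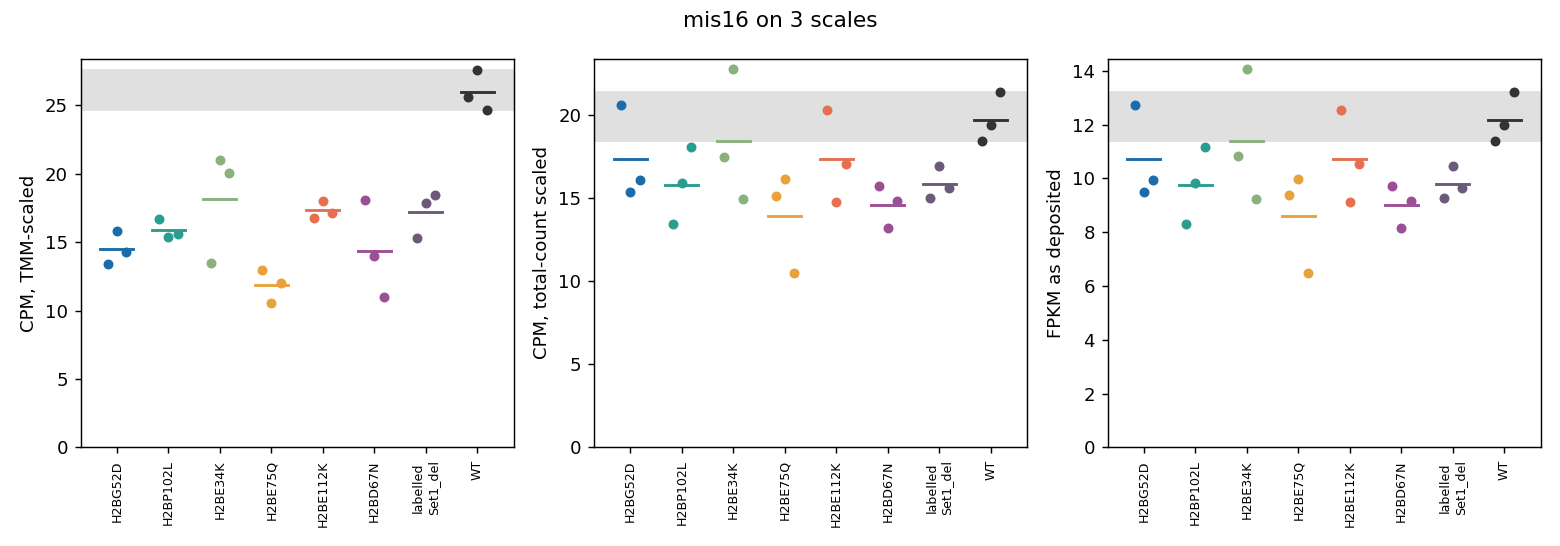
mis16 in each library as TMM-scaled CPM, as total-count CPM and as deposited FPKM, on axes from 0, with the 7 other genotypes left of WT, bars for means and a grey band for the WT range. All 21 libraries lie below the band by TMM, and 18 of 21 do so on each of the other scales.

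*mis18*, the partner of *mis16* in licensing, did not pass by edgeR in any of the 6 comparisons in which it was tested. It had 1.34, 0.848 and 1.01 CPM in H2BP102L, against 0.593, 0.374 and 0.818 CPM in WT, and did not overlap WT there (log2 fold change 0.81 ± 0.40, SE, adjusted p = 0.133). With limma on log2(FPKM + 1) that difference did pass (log2 fold change 0.63, adjusted p = 0.0106). In the libraries labelled Set1_del it had 0.317, 0.321 and 0.210 CPM from 5 to 8 counts and fell under the low-count filter. By TMM all 3 were below WT, whereas by total counts and in FPKM they overlapped WT.

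*ams2* encodes a GATA-type transcription factor that peaks in S phase and activates core histone genes, with a role in CENP-A localization. It had 8.79, 8.48 and 8.37 CPM in H2BP102L, against 13.9, 13.7 and 13.5 CPM in WT. The libraries labelled Set1_del had 8.09, 9.60 and 7.73 CPM. Replicates of WT and of H2BP102L were close together and the groups did not overlap. *ams2* fell by 0.66 on the log2 scale in H2BP102L (SE 0.13, adjusted p = 0.00242) and by 0.63 in the libraries labelled Set1_del (SE 0.14, adjusted p = 0.00753). Both falls were lost by total counts, with log2 fold changes of -0.29 in H2BP102L (adjusted p = 0.431) and -0.41 in the libraries labelled Set1_del (0.146). H2BG52D was also below WT in all 3 libraries, at 11.5, 10.98 and 11.6 CPM, without passing (log2 fold change -0.27 ± 0.14, adjusted p = 0.138), and its sign was positive by total counts. The other genotypes were split within themselves. H2BE112K had 20.1, 12.6 and 10.7 CPM, H2BD67N 14.0, 12.5 and 19.9 CPM and H2BE75Q 11.3, 13.1 and 5.83 CPM.

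*cnp3* encodes CENP-C, which binds the CENP-A nucleosome and is the base of the inner kinetochore. It had 15.7, 5.44 and 8.20 CPM in H2BG52D, against 4.86, 3.18 and 4.497 CPM in WT. H2BE75Q had 5.998, 10.9 and 5.79 CPM, and the libraries labelled Set1_del had 6.39, 6.87 and 6.64 CPM. All 9 of these libraries were above WT, tightly so only in the last group. *cnp3* rose 2.36-fold in H2BG52D (log2 fold change 1.24 ± 0.36, SE, adjusted p = 0.0206), 1.78-fold in H2BE75Q (0.84 ± 0.30, 0.0415) and 1.66-fold in the libraries labelled Set1_del (0.73 ± 0.19, 0.0157). H2BE34K held the highest library of all in replicate 1, with 23.6, 9.09 and 5.93 CPM in its 3 libraries, which differ 3.97-fold. All were above WT, and the gene did not pass (log2 fold change 1.66 ± 0.46, unadjusted p = 0.00487, adjusted p = 0.152). With DESeq2 in place of edgeR that difference had an adjusted p of 0.0184, and without H2BE34K replicate 3 of 0.0478. In H2BP102L, H2BE112K and H2BD67N *cnp3* lay between 2.45 and 5.21 CPM and overlapped WT.

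Single libraries weigh on *cnp3*. Without H2BG52D replicate 1 its log2 fold change in H2BG52D was 0.70, still called, and without WT replicate 2 it was 1.08 (adjusted p = 0.0852). The H2BE75Q call was kept in 2 of 6 fits that left out a library, and was lost without H2BE75Q replicate 2 (log2 fold change 0.51, adjusted p = 0.138) and without WT replicate 1 (0.0675), 2 (0.160) or 3 (0.0701). In the libraries labelled Set1_del the adjusted p was 0.0598 without replicate 2 and 0.0552 without replicate 3 of that group, and 0.321 in a fit of all 24 libraries together.

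*sim4* encodes the counterpart of CENP-K and *mis6* that of CENP-I, both in the inner kinetochore. *sim4* had 3.78, 3.43 and 2.92 CPM in H2BG52D, against 1.19, 1.497 and 0.971 CPM in WT. H2BP102L had 4.01, 1.89 and 2.48 CPM, and the libraries labelled Set1_del had 2.22, 2.81 and 2.60 CPM. Every one of these 9 libraries exceeded WT. *sim4* rose 2.78-fold in H2BG52D (log2 fold change 1.48 ± 0.30, SE, adjusted p = 0.00412), 2.30-fold in H2BP102L (1.20 ± 0.34, 0.0176) and 2.21-fold in the libraries labelled Set1_del (1.14 ± 0.25, 0.00716). The H2BG52D call held in all 14 alternative fits, with a highest adjusted p of 0.0186. The call in the libraries labelled Set1_del was lost only in the fit of all 24 libraries (0.0604). The H2BP102L call was less stable: its adjusted p was 0.110 without the libraries with *ura4* reads, 0.0625 without H2BP102L replicate 1 and 0.0553 without WT replicate 3. H2BE34K, at 2.77, 4.73 and 1.69 CPM, was also above WT without passing (log2 fold change 1.37 ± 0.44, adjusted p = 0.187). H2BE112K and H2BD67N gave 0.750 to 1.30 CPM, within or below WT.

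*mis6* was too rare to follow. It had 0.902, 0.707 and 0.712 CPM in H2BG52D, against 0.0593, 0.374 and 0.562 CPM in WT (log2 fold change 1.19 ± 0.60, SE, adjusted p = 0.130). It was tested in 5 comparisons with WT and passed in none by TMM, while by total counts it passed in H2BG52D (log2 fold change 1.85, adjusted p = 0.0491), and it missed the low-count filter in H2BD67N and in the libraries labelled Set1_del.

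*mis12* encodes a subunit of the Mis12 complex, which joins the inner kinetochore to the outer one. It had 6.67, 7.44 and 6.03 CPM in H2BE75Q and 5.67, 4.59 and 5.57 CPM in H2BP102L, against 3.44, 2.99 and 3.88 CPM in WT. No library of these mutants overlapped WT. It rose 1.93-fold in H2BE75Q (log2 fold change 0.95 ± 0.25, SE, adjusted p = 0.0113) and 1.55-fold in H2BP102L (0.63 ± 0.19, 0.0247). H2BG52D, at 5.74, 4.13 and 5.88 CPM, was as far from WT by fold (log2 fold change 0.61 ± 0.24) and missed the threshold (adjusted p = 0.0585), as did H2BD67N, at 4.66, 4.27 and 5.21 CPM (0.52 ± 0.22, 0.0890). Both mutants stood above WT in all libraries, and H2BG52D passed by total counts (0.0221). The H2BE75Q call was lost without WT replicate 2 (adjusted p = 0.0645). In H2BP102L it was lost without WT replicate 1 (0.0544) or 2 (0.0750) and without H2BP102L replicate 1 (0.0572) or 3 (0.0840).

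**Figure D4:**
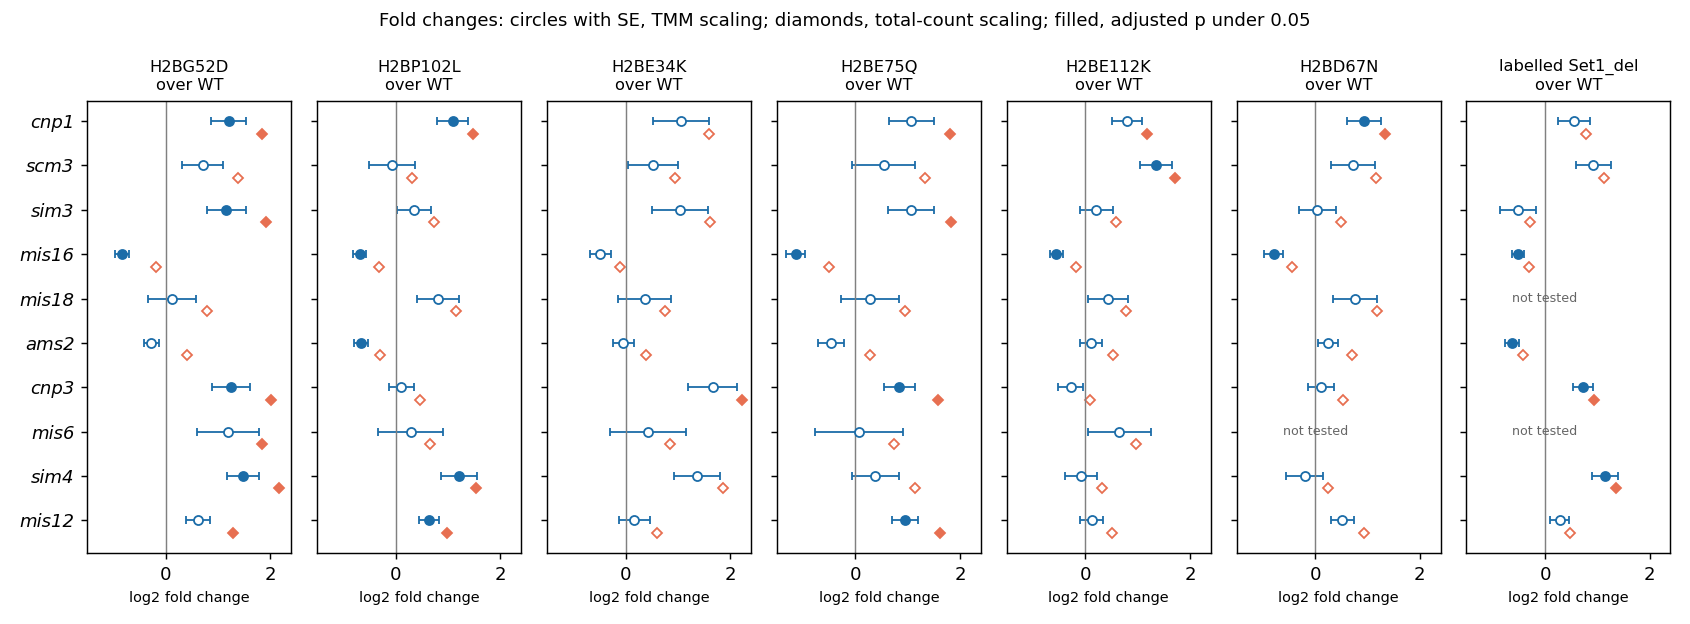
Log2 fold change of each member over WT in the 7 genotypes, by TMM (circles, bars are SE) and by total counts (diamonds), filled where the adjusted p is under 0.05. mis16 lies left of 0 in all 7 panels on both scales and is filled by TMM only.

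By genotype, the members' calls were as follows. In H2BG52D 4 of 10 members rose and 1 fell, beside 23.6% of all genes higher and 19.7% lower. At 2-fold or more 4 members passed, all higher, beside 21.5% of genes in either direction. The median log2 fold change of the 10 was 0.93, against 0.09 over all genes tested, and by total counts 6 members rose and none fell, beside 43.9% of genes higher and 5.11% lower. In H2BP102L 3 of 10 rose and 2 fell, beside 21% higher and 17.1% lower, and 2 passed at 2-fold, beside 13.4%. The median was 0.32 against 0.03 over all genes, and by total counts 3 rose and none fell, beside 28.1% and 4.38%. Without WT replicate 1, WT replicate 3 or H2BG52D replicate 3, 3 members in all were called in H2BG52D.

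In H2BE75Q 2 of 10 members rose and 1 fell, beside 19.5% higher and 16.6% lower, and 1 passed at 2-fold, *mis16*, beside 21.5%. The median was 0.46 against 0.08 over all genes, and by total counts 4 rose and none fell, beside 35.5% and 5.3%. In H2BE112K 1 of 10 rose and 1 fell, beside 15.3% and 12.5%, and *scm3* alone passed at 2-fold, beside 10.3%. Its median was 0.17 against 0.03, and by total counts 2 rose and none fell, beside 21.8% and 3.26%. In H2BD67N 1 of 9 tested rose and 1 fell, beside 20.4% and 15.4%, and none passed at 2-fold, beside 15.3%. The 2 called genes there were *cnp1* and *mis16*. The median was 0.24 against 0.08, and by total counts 1 rose and none fell, beside 25.6% and 4.79%.

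H2BE34K stood apart. By edgeR none of its 10 members passed, beside 0.103% of all genes higher, 0% lower and 0.103% at 2-fold. An unadjusted p under 0.05 by edgeR was found for 3 members, beside 900 of 4862 genes tested. DESeq2 called 1 member, and its share over all genes was not computed. The median over the members in H2BE34K was 0.48, against 0.09 over all genes. By total counts 1 member rose and none fell, beside 2.98% and 0.267%. In the libraries labelled Set1_del 2 of 8 tested members rose and 2 fell, beside 14.7% higher and 11.7% lower, and *sim4* passed at 2-fold, beside 6.46%. The median was 0.42 against 0.01, and by total counts 2 rose and none fell, beside 20.1% and 3.78%.

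H2BG52D and H2BP102L, the mutants the study followed furthest, were also compared with each other. Only *cnp3* passed, higher in H2BG52D, at 15.7, 5.44 and 8.20 CPM, against 4.90, 3.43 and 5.07 CPM in H2BP102L (log2 fold change 1.13 ± 0.35, SE, adjusted p = 0.0487). Over all genes 9.58% were higher and 9.4% lower in that comparison. The call was kept in 1 of the 6 fits that left out a library, and without H2BG52D replicate 1 the log2 fold change was 0.59 (adjusted p = 0.0938). It was lost as well without H2BG52D replicate 3 (0.0706) and without H2BP102L replicate 1 (0.111), 2 (0.180) or 3 (0.105). *cnp1*, called in both mutants against the shared WT, had a log2 fold change of 0.11 ± 0.28 between them (adjusted p = 0.808), and *sim4* 0.28 ± 0.31 (0.562). *ams2*, called in H2BP102L against WT, was 0.39 ± 0.14 higher in H2BG52D without passing (0.0749).

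Within genotypes, single libraries carried the highest levels of many members. H2BE75Q replicate 2 was the highest of its genotype for 8 of 10 members, H2BD67N replicate 3 for 8 and H2BE34K replicate 1 for 6. Replicate 2 of the libraries labelled Set1_del was the highest for 6, and H2BG52D replicate 1 and H2BP102L replicate 1 for 5 each. H2BP102L replicate 1 was also the lowest for 3. H2BE75Q replicate 3 was the lowest for 8 and H2BG52D replicate 2 for 7. The same count was not made over all genes, so these numbers cannot be read as a trait of the members. Other measures did not go with the highest libraries throughout. The share of counts in the 100 most abundant genes was the smallest of the genotype in H2BE75Q replicate 2 (54.7%), H2BD67N replicate 3 (57.0%) and H2BG52D replicate 1 (53.8%), against 61.9% to 65.4% in WT. It was not so in H2BE34K replicate 1 (58.7%) or in replicate 2 of the libraries labelled Set1_del (60.8%), and in H2BP102L replicate 1 it was the largest (62.4%). *set1* had the most counts of the genotype in H2BE75Q replicate 2 (150), H2BD67N replicate 3 (83), H2BE34K replicate 1 (103) and H2BG52D replicate 1 (86), but the fewest in H2BP102L replicate 1 (18), and 362 in replicate 2 of the libraries labelled Set1_del, under the 412 of replicate 3. The part of this in the members' values was not tested beyond leaving each library out, as given with the genes above.

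For *cnp1* and *ams2*, the genes with the most similar course over the 8 genotype means were found by Pearson's r of log2(CPM + 0.5) among 5030 genes. Points share WT and the scaling, and no p is given. *cnp1* was followed most closely by *aar2* (r = 0.965), *rad15* (0.955), *dnt1* (0.954), *cwf16* (0.951) and *slu7* (0.951). Among the members *mis12* had the highest r with *cnp1* (0.726) and *mis16* the lowest (-0.848). *ams2* was followed by SPCC794.15 (0.920), *cdt2* (0.908), *nuc1* (0.898), *mgl1* (0.888) and *tim15* (0.883). These genes are listed for likeness of level alone.

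Other kinetochore genes were read in lists drawn from textbook roles, chosen with earlier results of these data known. Beside the counts below, 0.103% to 23.6% of all genes were higher and 0% to 19.7% lower across the 7 comparisons with WT, as given by genotype above. Of 15 further inner kinetochore genes found, 12 or 13 were tested per comparison, and at most 1 rose and 2 fell in any. *fta5* fell at 2-fold or more in 4 mutants, with log2 fold changes of -1.94 in H2BP102L, -1.54 in H2BD67N, -1.32 in H2BE75Q and -1.13 in H2BE112K. *mal2* fell in H2BG52D (-1.02) and *cnl2* in H2BE75Q (-1.14), while *fta7* rose in H2BD67N (1.97). *mis19* and *mis20*, the other CENP-A loading genes found, passed in none of the 7 comparisons. Of 9 outer kinetochore genes, 8 or 9 were tested per comparison, at most 2 rose and at most 1 fell. *ndc80*, the microtubule-binding subunit, rose in H2BG52D (1.34) and H2BE75Q (1.34), *spc24* rose in H2BE75Q (1.16) and *mis14* fell in H2BD67N (-1.36).

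In the DASH ring, which couples kinetochores to microtubule ends, 9 of 10 genes were tested, and 0 to 2 rose and 0 to 1 fell per comparison. *dam1* rose at 2-fold or more in H2BG52D (log2 fold change 1.55), H2BP102L (2.06), H2BE75Q (1.46), H2BE112K (1.05) and the libraries labelled Set1_del (1.17). *dad1* rose in H2BG52D (1.85), H2BE75Q (1.29) and H2BD67N (1.07), and *dad5* fell in H2BP102L (-1.004) and H2BE75Q (-1.004). Of 11 passenger complex and spindle checkpoint genes, 0 to 3 rose per comparison. The survivin *bir1* rose in H2BE112K (1.70) and in the libraries labelled Set1_del (2.04), the checkpoint kinase *bub1* rose in H2BP102L (1.66), and the INCENP *pic1* rose in H2BG52D (1.08), H2BE75Q (1.27) and H2BE112K (1.07). The medians of this list lay between 0.02 and 0.37, against 0.01 to 0.09 over all genes.

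Core histone genes, which Ams2 activates in S phase, were set beside *ams2*. In the libraries labelled Set1_del, where *ams2* fell, 6 of 9 core histone genes fell, with a median log2 fold change of -0.62, beside 11.7% of all genes lower, and 2 fell by total counts, beside 3.78%. In H2BP102L, where *ams2* fell too, 2 rose and none fell, with a median of -0.03, beside 21% of all genes higher and 17.1% lower. The risen genes include *htb1*, the mutated gene itself (0.65). By total counts 4 rose and none fell there, beside 28.1% and 4.38%. Of the 11 genes of the G1/S list, 4 rose in H2BD67N, beside 20.4% of all genes, among them *cdt1* (2.31). In H2BP102L 4 fell, beside 17.1%, led by *cdc22* (-2.45), the large subunit of ribonucleotide reductase, but 1 by total counts. *cdc22* also fell at 2-fold or more in H2BE75Q (-2.54) and H2BG52D (-1.15). Of the G1/S list 2 rose and 2 fell in H2BE75Q, beside 19.5% and 16.6% of all genes. In H2BG52D 1 rose and 3 fell, beside 23.6% and 19.7%. By total counts 4 rose and 1 fell in H2BG52D, beside 43.9% and 5.11%. In H2BE75Q 3 rose and 1 fell by total counts, beside 35.5% and 5.3%. Of this list *mrc1* rose at 2-fold or more in H2BG52D (1.003) and *cdt1* in H2BE75Q (1.27). That list's median log2 fold change was 0.35 in H2BD67N and -0.44 in H2BP102L, or 0.77 in H2BD67N and -0.09 in H2BP102L by total counts.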

How the data were processed

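Poly(A)-enriched RNA from 24 *S. pombe* libraries was analysed, 3 for each of 8 genotypes, grouped by the genotype in the sample labels. Per the study's methods, the authors filtered reads with fastp, removed rRNA reads with Bowtie2, mapped with HISAT2 to an Ensembl release of the genome and computed FPKM with StringTie. The submitters' processing notes also name RSEM and DESeq2, without versions. The deposited tables hold read counts and FPKM per gene for each library, and the authors' own fold changes, p-values and false discovery rates, which were not used. Which program made the counts, and whether by strand, is not given in the sources used here. The 3 WT columns are the same in all 7 tables. The 5195 annotated genes were used, and 59 new transcripts were left out.

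Counts were tested with edgeR 4.0.16 (filterByExpr, TMM scaling, glmQLFit and glmQLFTest, Benjamini-Hochberg adjustment; R 4.3.3), each genotype against WT in a fit of those 6 libraries, H2BG52D against H2BP102L likewise, and all 24 libraries in a test over 8 genotypes. SE is the log2 fold change divided by the square root of F. The code was tested on simulated data. CPM used TMM factors over all 24 libraries. Depth limits the members with few counts, and total counts per library were 18935513 to 28181070. Alternatives were a fit without each library or without those with *ura4* reads, 1 fit to all 24 libraries, scaling by total counts, a replicate block, DESeq2 1.42.0, limma 3.58.1 on log2(FPKM + 1), and genes kept regardless of counts or only with 10 or more in each library.

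Replicate numbers are shared between groups. Deviations from the group mean of same-numbered libraries correlated at over 0.1 in all 3 pairs only for H2BD67N with WT (r = 0.167, 0.173 and 0.332). H2BD67N replicate 1 correlated more with WT replicate 2 (0.197) than with WT replicate 1. The labels give no pairing, and whether the numbers pair libraries was not tested. All 10 members are described. From each other list at most 3 genes per comparison are named, those with the largest change among genes called at 2-fold or more with the same sign by total counts. *htb1* is named as the mutated gene, and *pth3* and *swi5* were named for their overlap with members after seeing the data. Members and lists were chosen with earlier results of these data known. Of the 5195 gene IDs, 5109 matched the RefSeq annotation of ASM294v3, whose build differs from that of the files or is not shown to be the same, so no coordinates or sequences are printed.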

Additional observations from a re-analysis of the deposited data

How the results depend on the processing

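Members called at an adjusted p under 0.05 by edgeR numbered 5 in H2BG52D, 5 in H2BP102L, 0 in H2BE34K, 3 in H2BE75Q, 2 in H2BE112K, 2 in H2BD67N, 4 in the libraries labelled Set1_del, 1 in H2BG52D against H2BP102L and 7 among the 8 genotypes. No called value changed its sign under any alternative. For alternatives other than leaving out a library, this paragraph and the next give counts that changed by more than 1.5-fold, or to or from 0. Smaller changes are left out, apart from the following, which stayed within 1.5-fold of the edgeR counts above. Without the libraries with *ura4* reads 4 were called in H2BG52D, 4 in H2BP102L and 2 in H2BE75Q. By total counts 6 were called in H2BG52D and 4 in H2BE75Q, also within that limit. Total-count scaling gave 3 in H2BP102L, 1 in H2BE34K, 1 in H2BD67N, 2 in the libraries labelled Set1_del and 4 among genotypes. DESeq2 gave 1 in H2BE34K and 1 in H2BD67N. The fit of all 24 libraries gave 2 in H2BE34K, 1 in H2BD67N, 1 in the libraries labelled Set1_del and 0 between H2BG52D and H2BP102L. Without a low-count filter there were 1 in H2BD67N and 0 between H2BG52D and H2BP102L. Without the libraries with *ura4* reads there were 1 in H2BD67N and 2 between H2BG52D and H2BP102L. Leaving out each library gave 3 to 6 in H2BG52D, 3 to 4 in H2BP102L, 0 to 1 in H2BE34K, 1 to 4 in H2BE75Q, 2 in H2BE112K, 1 to 2 in H2BD67N, 3 to 4 in the libraries labelled Set1_del, 0 to 1 between H2BG52D and H2BP102L and 6 to 8 among genotypes.

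At 2-fold or more the counts were 4 in H2BG52D, 2 in H2BP102L, 0 in H2BE34K, 1 in H2BE75Q, 1 in H2BE112K, 0 in H2BD67N and 1 in the libraries labelled Set1_del. Total-count scaling gave 1 in H2BE34K, 4 in H2BE75Q, 2 in H2BE112K and 1 in H2BD67N. A minimum of 10 counts in every library gave 2 in H2BE75Q and 0 in H2BE112K, where *scm3* failed the minimum. DESeq2 gave 1 in H2BE34K. The fit of all 24 libraries gave 2 in H2BE34K, 3 in H2BE75Q and 0 in the libraries labelled Set1_del. Without the libraries with *ura4* reads there were 2 in H2BG52D, 1 in H2BP102L, 2 in H2BE75Q and 0 in the libraries labelled Set1_del. Leaving out each library gave 2 to 4 in H2BG52D, 0 to 2 in H2BP102L, 0 to 1 in H2BE34K, 1 to 3 in H2BE75Q, 1 in H2BE112K, 0 to 1 in H2BD67N and 0 to 1 in the libraries labelled Set1_del. Where a value above does not show the cause, the cause was not tested.

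With a replicate block 4 members were called in H2BG52D, *sim3* being lost (adjusted p = 0.0564), and 2 in H2BD67N, and it changed no other call. Whether the numbers pair the libraries was not tested. Over single members, the alternatives that kept all libraries or dropped those with *ura4* reads left 522 values on the same side of the threshold, ended 32 calls and made 19, and 22 uncalled values changed sign. Depth limits *mis6*, *mis18* and *scm3*, which had 1 to 16 counts in WT.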

Other observations

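Among mitotic genes controlled by forkhead factors, *slp1*, the anaphase activator, fell in H2BP102L (log2 fold change -1.43) and H2BE75Q (-1.53), and *spo12* rose in H2BD67N (1.04), each called by edgeR at 2-fold or more and with the same sign by total counts.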
